A study of Mus musculus with 8 samples.

Results

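The genes beside Tgfb1 on mouse chromosome 7 were examined in dermal fibroblasts in which Tgfb1 had been deleted. They were taken by symbol from the deposited table and comprised B9d2, Ccdc97, Hnrnpul1, Axl, Tmem91, Exosc5 and Bckdha. Of these 7 genes, 6 are among the 15111 genes of the table, and Tmem91 was not analysed here beyond its position. The study compared bulk RNA-seq of cultured primary fibroblasts between TGFβ1FKO mice (Tgfb1fl/fl:Col1a2-CreERT) and controls (Tgfb1fl/fl) that carry the floxed alleles but no Cre, with 4 libraries per group. Both groups came from tamoxifen-fed mice, and their fibroblasts were kept for 72 h in serum replacement medium on fibronectin. Cre activity in TGFβ1FKO mice requires tamoxifen and is directed to fibroblasts by Col1a2 control sequences. No group carried Cre without floxed alleles, so that Cre itself and the deletion cannot be told apart. The sources used here state neither which Tgfb1 exons the loxP sites flank nor whether each library comes from a separate mouse. The p-values therefore measure the spread between these libraries, which may be technical.

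The neighbours of Tgfb1 have unrelated roles. B9d2 encodes a B9 domain protein that acts with B9d1 and Mks1 in the transition zone, the gate at the base of the primary cilium that controls which proteins enter it, and most cultured fibroblasts can form such a cilium. Axl is a receptor tyrosine kinase of the TAM family and binds the ligand Gas6. Exosc5 is a subunit of the RNA exosome, which degrades and trims RNA from its 3′ end, and Hnrnpul1 is an RNA-binding protein related to hnRNP U. Bckdha encodes the E1 alpha subunit of the mitochondrial complex that breaks down branched-chain keto acids. Ccdc97 and Tmem91 encode a coiled-coil and a transmembrane protein, respectively. Neighbouring genes are of interest after a deletion because promoters, terminators and enhancers of one gene can lie in or next to another.

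In the GENCODE M21 annotation of GRCm38, the order on chromosome 7 is Bckdha (25629946-25658981, minus strand), Exosc5 (25659164-25671368, plus), Tmem91 (25669139-25675166, minus), B9d2 (25680780-25686558, plus), Tgfb1 (25687002-25705077, plus), Ccdc97 (25711106-25719088, minus), Hnrnpul1 (25721165-25754757, minus) and Axl (25757273-25788705, minus). All are protein-coding. B9d2 ends 443 bases upstream of the start of Tgfb1 and is read in the same direction. Such a close tandem neighbour is uncommon, since 276 of 21938 protein-coding genes (1.26%) have the start of another protein-coding gene within 443 bases downstream on the same strand. Ccdc97, on the other side, is read towards Tgfb1, and its end lies 6028 bases from that of Tgfb1. The other neighbours lie farther away, with gaps to Tgfb1 of 11.835 kb for Tmem91, 15.633 kb for Exosc5, 16.087 kb for Hnrnpul1, 28.02 kb for Bckdha and 52.195 kb for Axl.

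B9d2 has 4 annotated transcripts. The 2 long ones, B9d2-201 with 3 exons and B9d2-203 with 4, both encode 175 codons, share the last exon (25685981-25686558) and start at different first exons. The longest of the 5 Tgfb1 transcripts has 7 exons and encodes 390 codons. The sequences upstream of these start sites are shown because they lie before the starts of B9d2, the gene that changed, and of Tgfb1, the gene that was deleted. They are cut from RefSeq promoter windows of 300 bases on GRCm38.p6 to leave out first exons, plus strand, written 5′ to 3′, and capitals mark the GC box GGGCGG on either strand. The distal B9d2 sequence (chr7:25680530-25680779) ends before the first base of B9d2-203, the proximal one (chr7:25680979-25681157) lies between the alternative first exons, and the Tgfb1 sequence (chr7:25686752-25687001) lies wholly in the 443 bases between the genes.
B9d2 distal start: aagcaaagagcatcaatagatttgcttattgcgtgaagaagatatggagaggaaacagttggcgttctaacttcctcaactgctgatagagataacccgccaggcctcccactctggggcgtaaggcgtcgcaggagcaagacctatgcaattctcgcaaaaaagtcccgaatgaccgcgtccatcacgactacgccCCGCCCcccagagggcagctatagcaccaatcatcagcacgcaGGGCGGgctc
B9d2 proximal start: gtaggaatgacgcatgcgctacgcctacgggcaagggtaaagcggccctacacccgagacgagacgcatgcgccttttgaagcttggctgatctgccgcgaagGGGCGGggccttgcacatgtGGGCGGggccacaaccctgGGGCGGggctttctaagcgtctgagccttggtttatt
Tgfb1 start: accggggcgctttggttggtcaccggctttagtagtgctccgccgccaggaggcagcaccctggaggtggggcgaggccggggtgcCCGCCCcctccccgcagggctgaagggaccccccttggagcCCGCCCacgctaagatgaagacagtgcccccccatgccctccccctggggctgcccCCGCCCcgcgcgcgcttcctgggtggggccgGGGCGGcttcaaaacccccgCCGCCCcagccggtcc
The GC box occurred 2 times in the distal and 3 times in the proximal B9d2 sequence and 5 times before Tgfb1. The whole windows of 300 bases held 2, 3 and 6 GC boxes, and G or C made up 56.0%, 59.7% and 77.0% of their bases, respectively. Of 32817 RefSeq promoter windows of 300 bases, 35.63% hold this motif, and their median GC content was 52.7%. TATAAA was absent from the windows of all 7 members and of Tgfb1 and present in 13.62% of all windows. The distal B9d2 window held 1 match, in the transcribed bases just past the sequence printed, to the X-box, the motif of the RFX factors of ciliary genes, and 0.8% of all windows hold one. This motif was chosen after the sequence had been seen, and a match is a description of letters and not a binding site.

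The deleted gene was compared first. The normalised counts of Tgfb1 were 1400.5, 1298.4, 1482.5 and 1313.5 in control replicates 1 to 4 and 326.4, 259.9, 228.4 and 294.7 in TGFβ1FKO replicates 1 to 4. Every TGFβ1FKO library lay below every control library, but none lost the transcript altogether. On average 20.2% of the control level was left. In bulk RNA this share cannot be assigned to fewer cells with the transcript or to less transcript per cell. The same holds for all values that follow. The Tgfb1 count is over the whole gene, so reads from exons that were not deleted would be part of it. Tgfb1 changed by -2.31 ± 0.10 (SE) on the log2 scale (limma, adjusted p = 1.53e-07). Here and below, adjustment was over all 15111 genes by the Benjamini-Hochberg method.

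B9d2 (ENSMUSG00000063439) was lower in every TGFβ1FKO library. Its normalised counts were 149.7, 130.7, 179.6 and 116.5 in the control libraries and 62.8, 43.5, 39.9 and 37.7 in the TGFβ1FKO libraries. The groups did not overlap, as the highest TGFβ1FKO library reached 62.8 and the lowest control library 116.5. Control fibroblasts had a mean of 144.1 ± 27.3 (SD, n = 4) and TGFβ1FKO fibroblasts of 45.97 ± 11.5, so that 31.9% of the control level was left. On the log2 scale this was a change of -1.64 ± 0.19 (SE) with a 95% confidence interval from -2.05 to -1.22 (limma, adjusted p = 0.00499). This interval corresponds to between 24.1% and 42.8% of the control level. The exact permutation test on the library values gave p = 0.0286 (two-sided), the smallest p that 4 libraries against 4 allow. By p-value B9d2 ranked 3 of all 15111 genes, and by log2 fold change it was at rank 43 from the lowest. When the same fold change was tested against a minimum of 0.6 instead of 0 (limma treat, added after the data had been seen), B9d2 was no longer called (adjusted p = 0.165).

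The counts behind B9d2 were small. Between 118 and 174 reads per control library and between 34 and 62 per TGFβ1FKO library were assigned to it. Counting error alone would give coefficients of variation of 8.42% and 14.9% in these groups, whereas 18.9% and 25.0% were observed between the libraries. Within the controls, replicate 3 had the highest B9d2 level and replicate 4 the lowest.

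**Figure D1:**
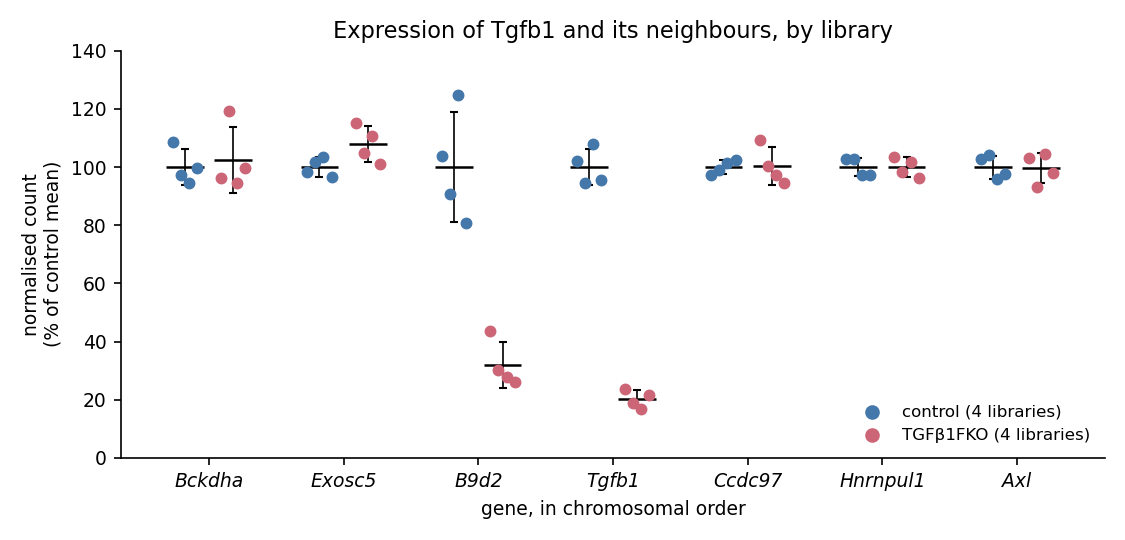
Normalised count of Tgfb1 and its 6 measured neighbours in each library, as a percentage of the mean of the 4 control libraries of that gene, with genes in chromosomal order on the x axis. Points are libraries (control blue, TGFβ1FKO red), and bars show mean ± SD. B9d2 and Tgfb1 lie at 31.9% and 20.2% of the control mean in TGFβ1FKO, whereas the groups of the other genes overlap.

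Downstream of Tgfb1, 3 genes are read towards it, and for none of them did a difference between the groups pass the test. Ccdc97 (ENSMUSG00000002608) had normalised counts of 954.9, 970.1, 994.6 and 1006.4 in control and 1073.4, 983.8, 955.8 and 928.4 in TGFβ1FKO libraries. The TGFβ1FKO libraries lay on both sides of the controls. Its means of 981.5 ± 23.3 and 985.4 ± 62.9 (SD, n = 4 each) gave a log2 fold change of 0.00 (95% confidence interval -0.13 to 0.13, adjusted p = 0.994, limma), so that the interval spans from 91.6% to 109.7% of the control level. Under 2 other scalings the sign of this small value changed.

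Hnrnpul1 (ENSMUSG00000040725) had 3590.0, 3592.3, 3397.5 and 3402.3 normalised counts in control and 3618.6, 3436.2, 3561.4 and 3361.5 in TGFβ1FKO libraries. The spread within each group was larger than the difference of the means, 3496 ± 110.4 against 3494 ± 116.9 (SD, n = 4 each). Its log2 fold change was -0.00 with an interval from -0.11 to 0.10 (adjusted p = 0.998, limma). Axl (ENSMUSG00000002602), the most abundant gene of the group, had 17568, 17800, 16394 and 16698 normalised counts in control and 17633, 15967, 17866 and 16783 in TGFβ1FKO libraries. Both the lowest and the highest value of Axl were found in TGFβ1FKO libraries. The log2 fold change was -0.01 with an interval from -0.13 to 0.12 (adjusted p = 0.993, limma), or from 91.5% to 108.6% of the control level.

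Upstream of B9d2, Exosc5 and Bckdha start 182 bases apart and are read away from each other. Exosc5 (ENSMUSG00000061286) had 327.8, 340.0, 346.0 and 322.0 normalised counts in control and 384.2, 350.0, 369.5 and 337.9 in TGFβ1FKO libraries. In 3 of 4 TGFβ1FKO libraries the value lay above all controls, while replicate 4 fell within their range. The log2 fold change was 0.11 with an interval from -0.06 to 0.27 and did not pass the test (adjusted p = 0.772, limma, and p = 0.0857 in the two-sided exact permutation test). Bckdha (ENSMUSG00000060376) had 228.0, 204.0, 198.5 and 209.4 normalised counts in control and 201.7, 250.6, 198.5 and 209.4 in TGFβ1FKO libraries. Its highest value was that of TGFβ1FKO replicate 2, and the other 3 lay within the range of the controls to the precision printed. The log2 fold change was 0.03 with an interval from -0.19 to 0.25 (adjusted p = 0.963, limma), and without TGFβ1FKO replicate 2 it was -0.045.

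The libraries were non-directional. Exosc5 shares 2230 bases with Tmem91 on the opposite strand, and Bckdha shares 5155 bases with B3gnt8, so that reads in these stretches cannot be assigned by strand. B9d2 and Tgfb1 do not overlap in the annotation.

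A gene was called when its adjusted p was below 0.05 and its log2 fold change exceeded 0.6 in size. Of the 6 measured neighbours 1 was called, B9d2, which was lower, and 0 were called higher. Over all genes 0.086% were called in either direction, 0.0794% lower and 0.00662% higher. At an unadjusted p under 0.05 there was also 1 of 6, B9d2, against 7.46% of all genes. The groups did not overlap in 1 of the 6, again B9d2, against 3.79% of all genes, and in 2.1% of all genes they were separated in the lower direction. The median log2 fold change was 0.00 for the 6 neighbours, with 3 lower and 3 higher, and 0.00 for all genes.

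**Figure D2:**
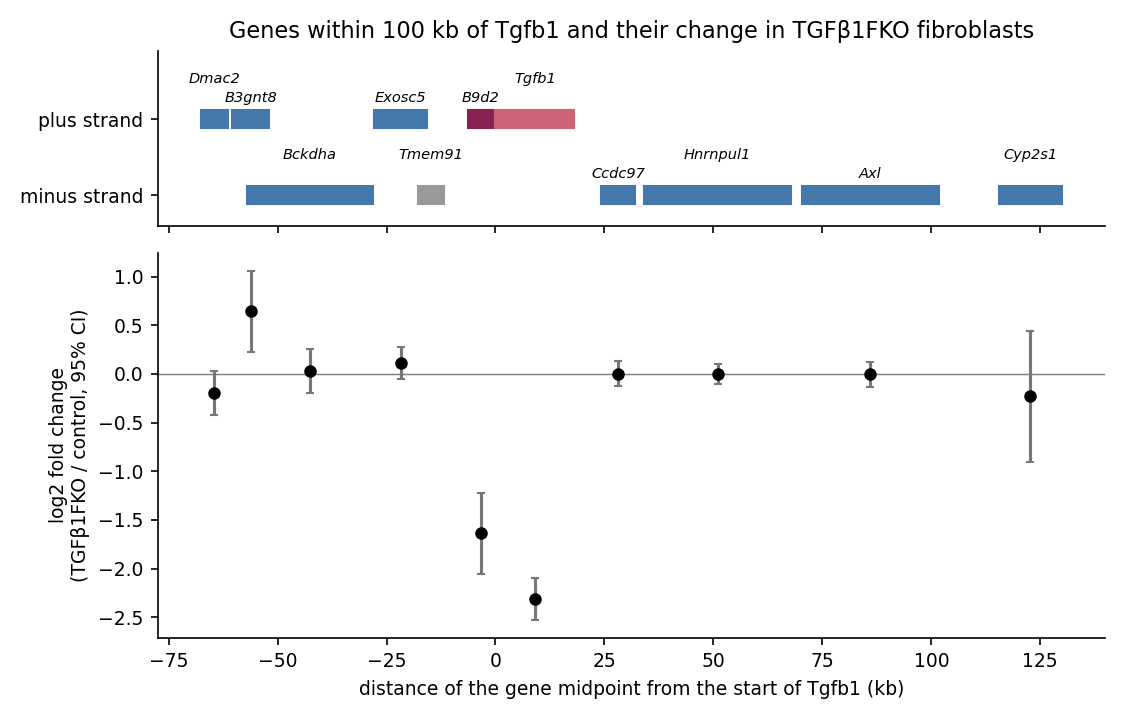
Top, genes within 100 kb of Tgfb1 by strand, drawn to scale by distance in kb from the start of Tgfb1 (Tgfb1 light red, B9d2 dark red, Tmem91, without expression values here, grey). Bottom, log2 fold change of each gene (TGFβ1FKO over control, limma, 4 libraries per group) with its 95% confidence interval at the gene's midpoint. B9d2 (-1.64) and Tgfb1 (-2.31) are low, and the interval of B3gnt8 (0.64) lies above 0 before adjustment for the number of genes.

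Whether B9d2 moved differently from its neighbours was tested directly, by the log2 difference between B9d2 and each of 6 genes within a library. This comparison does not depend on how the libraries were scaled. A comparison with Tmem91 was not made. The difference to Ccdc97 was -2.78 ± 0.27 in control and -4.42 ± 0.24 in TGFβ1FKO fibroblasts (SD, n = 4 each), a change of -1.64. B9d2 amounted to between 11.6% and 18.1% of the Ccdc97 count in the control libraries and to between 4.06% and 5.85% in the TGFβ1FKO libraries. The corresponding changes were -1.64 against Hnrnpul1, -1.63 against Axl, -1.75 against Exosc5 and -1.67 against Bckdha. In each of these 5 comparisons all 4 TGFβ1FKO libraries lay below all controls (two-sided exact permutation test, p = 0.0286, and 0.0286 after Benjamini-Hochberg adjustment over 6 pairs). All 5 use the same B9d2 values, and the other gene changed little, so they largely repeat the fall of B9d2.

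B9d2 and Tgfb1 did not fall by the same factor. B9d2 amounted to 10.7%, 10.1%, 12.1% and 8.87% of the Tgfb1 count in the control libraries and to 19.3%, 16.7%, 17.5% and 12.8% in the TGFβ1FKO libraries. All 4 TGFβ1FKO libraries lay above all controls, although TGFβ1FKO replicate 4, at 12.8%, came close to control replicate 3. The log2 difference rose by 0.68 (two-sided exact permutation test, p = 0.0286, and 0.0286 after adjustment over 6 pairs). Relative to its own control level, B9d2 was thus less reduced than Tgfb1.

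**Figure D3:**
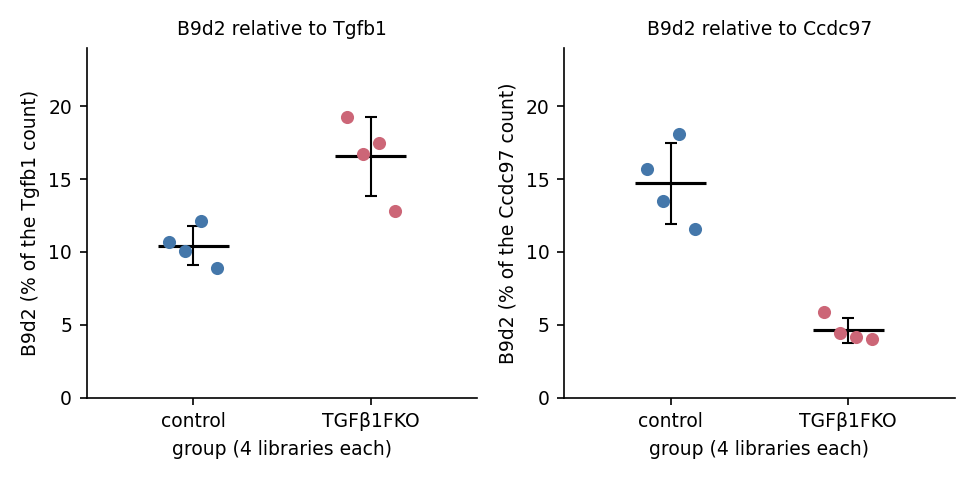
B9d2 as a percentage of the Tgfb1 count (left) and of the Ccdc97 count (right) in each library, with points for libraries and bars for mean ± SD of 4 libraries per group. Relative to Tgfb1, B9d2 is higher in TGFβ1FKO (12.8% to 19.3%) than in control (8.87% to 12.1%), and relative to Ccdc97 it is lower (4.06% to 5.85% against 11.6% to 18.1%).

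Levels were compared between genes per kb of exonic sequence, which joins the exons of all annotated transcripts of a gene. This length was 6268 bases for Exosc5 and 1454 for B9d2, and the order of the genes depends on it. In control fibroblasts the mean level, in normalised counts per kb, was 3401 for Axl, 403.9 for Hnrnpul1, 272.5 for Tgfb1, 249.2 for Ccdc97, 110.6 for Bckdha, 99.1 for B9d2 and 53.3 for Exosc5. Of the neighbours in this order, B9d2 (80.2 to 123.5 per kb) and Bckdha (104.5 to 120.1 per kb) overlapped in the controls, and the other adjacent genes did not. In TGFβ1FKO fibroblasts B9d2 was the lowest of the 7, at 31.6 per kb (25.9 to 43.2). Tgfb1 came down to 55.0 per kb (45.3 to 64.7) and overlapped Exosc5 (53.9 to 61.3). By mean normalised count over all libraries, Axl exceeded 99.4% of the genes in the table, Exosc5 50.1% and B9d2 30.3%.

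The wider region held few other differences. Within 100 kb of Tgfb1, 9 other genes were measured, of 14 annotated, and the window of 250 kb added none. B9d2 was the 1 called gene among them, 5 were lower and 4 higher, and the median log2 fold change was -0.00. Beyond the members these were Dmac2, B3gnt8 and Cyp2s1. B3gnt8, a glycosyltransferase gene that overlaps Bckdha, had means of 67.1 ± 16.7 in control and 104.3 ± 18.3 in TGFβ1FKO fibroblasts, in normalised counts (SD, n = 4 each). Its groups overlapped between 83.0 and 88.9, and its log2 fold change of 0.64 did not pass the test (adjusted p = 0.482, limma, and an unadjusted p of 0.00552). Neither Dmac2 (-0.19 on the log2 scale, adjusted p = 0.703) nor Cyp2s1, with 14.4 ± 3.64 counts in control (-0.23, adjusted p = 0.901), passed limma's test. Within 1 Mb, 26 genes were measured, of which 19 were lower and 7 higher, and their median was -0.06 against 0.00 over all genes. Over all genes 7412 were lower and 7699 higher. An unadjusted p under 0.05 (limma) was found for 2 of the 26, against 7.46% of all genes. B9d2 remained the 1 called gene in this window. On the whole of chromosome 7, 2 of 1130 genes were called, Tgfb1 and B9d2.

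B9d2 was then set beside the other genes of the ciliary transition zone. All 19 genes of this list were measured, and B9d2 was the 1 that was called. The list's median log2 fold change was 0.02, with 9 genes lower and 10 higher. Among its most abundant genes were Cc2d2a, a scaffold of the transition zone, with mean normalised counts of 507.8 ± 30.8 in controls and 462.2 ± 28.8 in TGFβ1FKO (SD, n = 4 each) and Rpgrip1l with 306.6 ± 27.0 and 309.3 ± 5.38. For neither did the difference pass the test (adjusted p = 0.705 and 0.977, limma). B9d1 and Mks1, which encode the other B9 domain proteins of the complex, were added for that role with their values known. B9d1 had 185.9 ± 12.8 counts in control and 163.6 ± 8.21 in TGFβ1FKO (log2 fold change -0.18, adjusted p = 0.703, limma). Mks1 had 136.2 ± 15.2 and 120.6 ± 13.0 counts (log2 fold change -0.17, adjusted p = 0.796, limma).

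**Figure D4:**
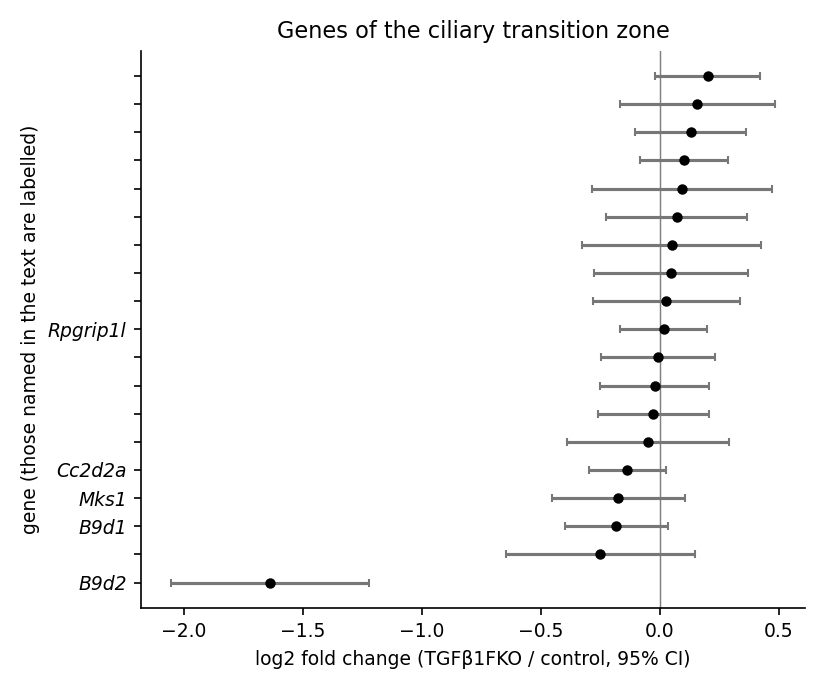
Log2 fold change (TGFβ1FKO over control, limma, 4 libraries per group) with 95% confidence interval for 19 genes of the ciliary transition zone, ordered by value, with labels for the genes described by name. B9d2 lies at -1.64, and the intervals of the other 18 genes include 0.

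The partners of the other neighbours were described in the same way. Of 14 measured genes of the RNA exosome and its cofactors, 0 were called, 4 were lower and 10 higher, with a median log2 fold change of 0.02. The most abundant were the nuclease gene Exosc10, the helicase gene Skiv2l2 and C1d, whose log2 fold changes were 0.01, 0.07 and -0.07. Exosc9, another subunit of the ring that holds Exosc5, had 463.4 ± 17.98 counts (SD, n = 4) in control and 498.3 ± 13.6 in TGFβ1FKO. Its groups did not overlap, which was the case in the higher direction for 1.69% of all genes, but it did not pass limma's test (adjusted p = 0.734).

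For Axl, the list comprised the TAM receptors and their ligands, and of its 5 genes 0 were called. Gas6, the ligand of Axl, was abundant, with means of 32582 ± 6401 in control and 34295 ± 4658 in TGFβ1FKO fibroblasts (normalised counts, SD, n = 4 each), and did not pass limma's test (log2 fold change 0.08, adjusted p = 0.91). Pros1, a ligand of the other receptors of the family, had a log2 fold change of -0.04 and the receptor Tyro3 of 0.07, neither of which passed the test.

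Of 20 measured hnRNP genes, the family of Hnrnpul1 in the wide sense, 0 were called, 12 were lower and 8 higher, and the median log2 fold change was -0.02. Hnrnpk, Hnrnpu and Hnrnpa2b1 were the most abundant, with log2 fold changes of 0.02, 0.03 and -0.03. In Hnrnpdl and Hnrnpa3 all TGFβ1FKO libraries lay below all controls, which was the case for 2.1% of all genes. Hnrnpdl had 1597 ± 88.1 and 1410.3 ± 45.0 counts (log2 fold change -0.18, adjusted p = 0.51, limma), and Hnrnpa3 had 440.2 ± 18.5 and 382.8 ± 25.8 (log2 fold change -0.20, adjusted p = 0.599, limma), so that neither passed the test. Of 21 measured genes for the breakdown of branched-chain amino acids, which include Bckdha, 0 were called, 12 were lower and 9 higher, and the median log2 fold change was -0.00. The most abundant of these were Bcat1, Dld and Acadsb.

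The genes whose pattern was most like that of B9d2 were sought among the 11560 other genes whose normalised count averaged at least 50. By Pearson correlation over the 8 libraries, which share the difference between the groups, Tgfb1 ranked first, followed by Fam19a5, Mbd4, Lmo4 and Bmp1. In all of these 5 the TGFβ1FKO libraries lay below the controls, which held for 2.1% of all genes. A choice by correlation with B9d2, whose groups do not overlap, favours such genes, so this is no separate result. Tgfb1 and Fam19a5 were called. When the group means had been subtracted, Tgfb1 ranked 880 with r = 0.69. The leading genes then included Fau (r = 0.98), Rps20 (0.98), Tsen34 (0.97) and Sec61b (0.97). These values rest on 8 libraries with 2 means removed and are given as a description.

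The cultures were checked for their cell type with marker genes. All 10 fibroblast markers were measured, their summed normalised count ranged from 1523679 to 1866939 in control and from 1603954 to 1730910 in TGFβ1FKO libraries, and 0 were called. Markers of other cells were present at far lower sums. Of 8 measured Schwann cell markers, 3 were called lower, Sox10 and Foxd3 among them, against 0.0794% of all genes. All 8 were lower without overlap of the groups, against 2.1% of all genes. Their sum was 732.1, 799.0, 1066.7 and 325.9 in the control and 168.3, 117.0, 174.4 and 144.0 in the TGFβ1FKO libraries. None of the 8 was at 0 in every library. As for B9d2, control replicate 3 had the highest and control replicate 4 the lowest of the control sums. In TGFβ1FKO the orders differed, since the sum was highest in replicate 3 and lowest in replicate 2, whereas B9d2 was highest in replicate 1 and lowest in replicate 4. The part of these cells in the B9d2 result was not tested. Without control replicate 3 the log2 fold change of B9d2 was -1.53 (adjusted p = 0.0341, limma), and without control replicate 4 it was -1.73 (adjusted p = 0.00361, limma).

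Endothelial markers (6 measured, 0 called, all lower) summed to between 497.8 and 784.1 in control and between 488.6 and 526.1 in TGFβ1FKO libraries. Of the measured markers of macrophages (4), pericytes (4) and keratinocytes (3), 0 were called, and the ranges of their sums overlapped between the groups. Their part in the B9d2 result was not tested either. The depth of the libraries, as reads on the listed genes, ranged from 16988998 to 21806579 in controls and from 17445002 to 23071528 in TGFβ1FKO.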

How the data were processed

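Primary dermal fibroblasts of 4 control and 4 TGFβ1FKO samples were compared by bulk RNA-seq, and samples were grouped by the genotype in their labels. The submitters' processing notes name CASAVA 1.8, HISAT2 2.0.5, featureCounts 1.5.0-p3, R 4.3.2, DESeq2 1.42.0 and GRCm38. The authors deposited 1 signal value per gene and library, a read count divided by the library's size factor plus 0.5. The columns of the authors' own comparison (mean, log2 fold change with standard error, test statistic and p-values) were not used.

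The 0.5 was subtracted, after which 100% of values were whole multiples of the value of 1 read (tolerance 0.05 reads). Values of log2(normalised count + 1) were compared with limma 3.58.1 (R 4.3.3, mean-variance trend) over 15111 genes, the lowest with 41 reads in all. Called genes had a p-value below 0.05 after Benjamini-Hochberg adjustment and a log2 fold change larger than 0.6 in size. Adding 1 makes changes of genes with few reads appear smaller. Single values were compared with two-sided exact permutation tests (Python 3.11.15, SciPy 1.17.1). Libraries of a group differed by more than sampling noise (chi-square divided by its degrees of freedom, 4.89 or more). Counting errors do not cover PCR duplicates. Coordinates were from GENCODE M21, which held 15098 of the genes, and the limma step was tested on simulated data.

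The members, lists and tests were chosen with earlier results of these data known. Named genes are the members, Tgfb1, tested genes within 100 kb, list genes that were called or did not overlap and otherwise the 3 most abundant of a list, and the 5 most like B9d2 by either correlation. Alternatives covered pseudocounts of 0.5 and 5, a minimum of 10 reads in every library, a replicate block and leaving out each library. Quantile normalisation, equal totals and a test against 0.6 were chosen after seeing the data. No count model was run on these normalised values, although the design provided for one. Exosc6, Mtrex, Adgre1, Ptprc, Krt1, Krt5, Krt14 and Kcnj8 of the lists were not analysed here, and some genes to which the naming applies are left unnamed.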

Additional observations from a re-analysis of the deposited data

How the results depend on the processing

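Across the settings that kept all libraries, the log2 fold change of B9d2 lay between -1.66 and -1.56. It was called in all of them except the test against 0.6 (-1.64, adjusted p = 0.165), where 0 neighbours were called instead of 1. The threshold it is tested against, not the estimate, makes this difference. With each library left out in turn it lay between -1.80 and -1.53 (adjusted p between 0.00203 and 0.0341, limma), and 1 neighbour, B9d2, was called each time. Tgfb1 lay between -2.40 and -2.23 with a library left out and between -2.33 and -2.30 otherwise. The other neighbours were never called. Ccdc97 changed sign with quantile normalisation (-0.017) and with equal totals (-0.015), and lay between -0.038 and 0.032 with a library left out. In the same fits Hnrnpul1 ranged from -0.018 to 0.018, Axl from -0.028 to 0.026, Bckdha from -0.045 to 0.070 and Exosc5 from 0.08 to 0.14. The log2 differences between B9d2 and the 6 other genes kept their sign with both other pseudocounts and with each library left out, the settings in which they were computed, but with 3 libraries against 4 the exact permutation test allows no p below 0.0571.

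The number of called genes, 13 with 12 lower, depended on the processing. It was 3 with at least 10 reads in every library, which removes genes that fell to few reads, 31 (28 lower) with the replicate block, 8 with quantile normalisation and 4 in the test against 0.6. With a library left out it lay between 5 and 32, being 7, 6, 5 and 32 without control replicates 1 to 4 and 5 without TGFβ1FKO replicate 2 or 4. Apart from the filter and the threshold, the cause was not tested. Deviations of same-numbered libraries from their group means correlated at 0.156, -0.134, 0.0523 and 0.159 over 11561 genes. Between libraries of different number they ranged from -0.319 (control replicate 4 with TGFβ1FKO replicate 3) to 0.387 (control replicate 4 with TGFβ1FKO replicate 2). TGFβ1FKO replicates 1 and 4 correlated best with the control of their own number, but no control library correlated best with its own number. With 4 libraries per group these values cannot decide whether the numbers pair the samples. B9d2 was called with the block too (adjusted p = 0.00373, limma).

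The planned count tests (edgeR and DESeq2) and TMM scaling were not run. B9d2 rests on 34 to 62 reads per TGFβ1FKO library. Of 14 groups of 4 libraries tested, none held a library that stood apart by Dixon's test.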
